A study of Mus musculus with 19 samples.

Results

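Uroplakins are the membrane proteins that cover the surface of the bladder lining, and Psca is a surface antigen named for its place in prostate. The 5 uroplakin genes Upk1a, Upk1b, Upk2, Upk3a and Upk3b were followed together with Psca in RNA-seq profiles of prostate, fibroblasts and grafts made from reprogrammed fibroblasts. These 6 genes were taken by name from the 23259 genes found in both deposited tables (23284 in each). They were picked with earlier results on the grafts known, so their graft values are given as a description, without a test, and the comparison of prostate with fibroblasts is the one tested. The profiles cover 6 samples of mouse embryonic fibroblasts (MEFs), 6 samples of wild-type C57BL/6 prostate at 6 weeks of age, and 7 renal grafts harvested 6 weeks after implantation. MEFs came from limbs of E13.5 embryos, with male and female littermates pooled, were sorted to remove blood, endothelial and EpCAM-positive cells, and are labeled as heterozygous for a lacZ allele. Graft cells were MEFs turned into induced epithelial (iEpt) cells by retroviral human OCT4, SOX2, KLF4 and c-MYC. In iEpt+NAF grafts the cells had also received lentiviruses for a set of prostate regulators that includes mouse Foxa1. All grafts were mixed with rat urogenital mesenchyme and grown under the kidney capsule of male nude mice with testosterone pellets, so a graft can hold host mouse kidney and rat stroma beside the iEpt-derived cells. The sample labels name all 7 only as renal grafts. The supplementary material of the study names FS002, FS003, FS005, FS007 and FS008 as iEpt+NAF, and FS022 and FS023, which lie in a table of their own, were taken as grafts of iEpt cells without these regulators by elimination.

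In the urothelium, the stratified lining of the bladder and urethra, uroplakins assemble into rigid plaques on the apical face of the umbrella cells. The tetraspanin Upk1a pairs with Upk2 and the tetraspanin Upk1b pairs with Upk3a or Upk3b, and a full plaque needs both kinds of pair. Psca is a small GPI-anchored protein of the Ly6 family that is found in urothelium, in stomach and in luminal cells of the proximal prostate, the part of the gland next to the urethra. Upk3b is also a known gene of the mesothelium, the cell layer that covers internal organs.

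The deposited values are log2 DESeq-normalized reads per gene, and a log2 difference of 1 is a 2-fold change. Reads on genes were estimated at 16767295 to 26152350 per sample in the table of 17 samples, and at 6629666 in FS022 and 9662062 in FS023. A gene with 3 reads has a log2 value of 1.68 to 2.34 in the 17 samples, 3.12 in FS022 and 2.70 in FS023, and values at or below that level were read as not detectable at this depth; this floor covers counting error only. Several samples stood apart. MEF samples FS015 to FS018 held a trace of prostate secretory transcripts, with Pbsn (probasin) at log2 values of 6.59 to 8.55 against 0.02 and 0.35 in FS019 and FS020, and graft levels of kidney genes differed widely. Both are given with the results they touch.

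The genes lie on different chromosomes in the mouse assembly mm9 (GENCODE M1), except that Psca (ENSMUSG00000022598.5, chr15:74545269-74547493, plus strand) and Upk3a (ENSMUSG00000022435.5, chr15:84847571-84852990, plus strand) share chromosome 15 at separate sites. Upk1a (ENSMUSG00000006313.4) is at chr7:31388111-31397753 and Upk1b (ENSMUSG00000049436.4) at chr16:38773297-38800316, both on the minus strand. Upk2 (ENSMUSG00000041523.2) is at chr9:44260799-44262850 on the minus strand and Upk3b (ENSMUSG00000042985.6) at chr5:136514366-136521173 on the plus strand. None of the 6 overlaps another annotated gene. The nearest gene to Psca is Lypd2, another member of its family, 1967 bases away.

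**Figure D1:**
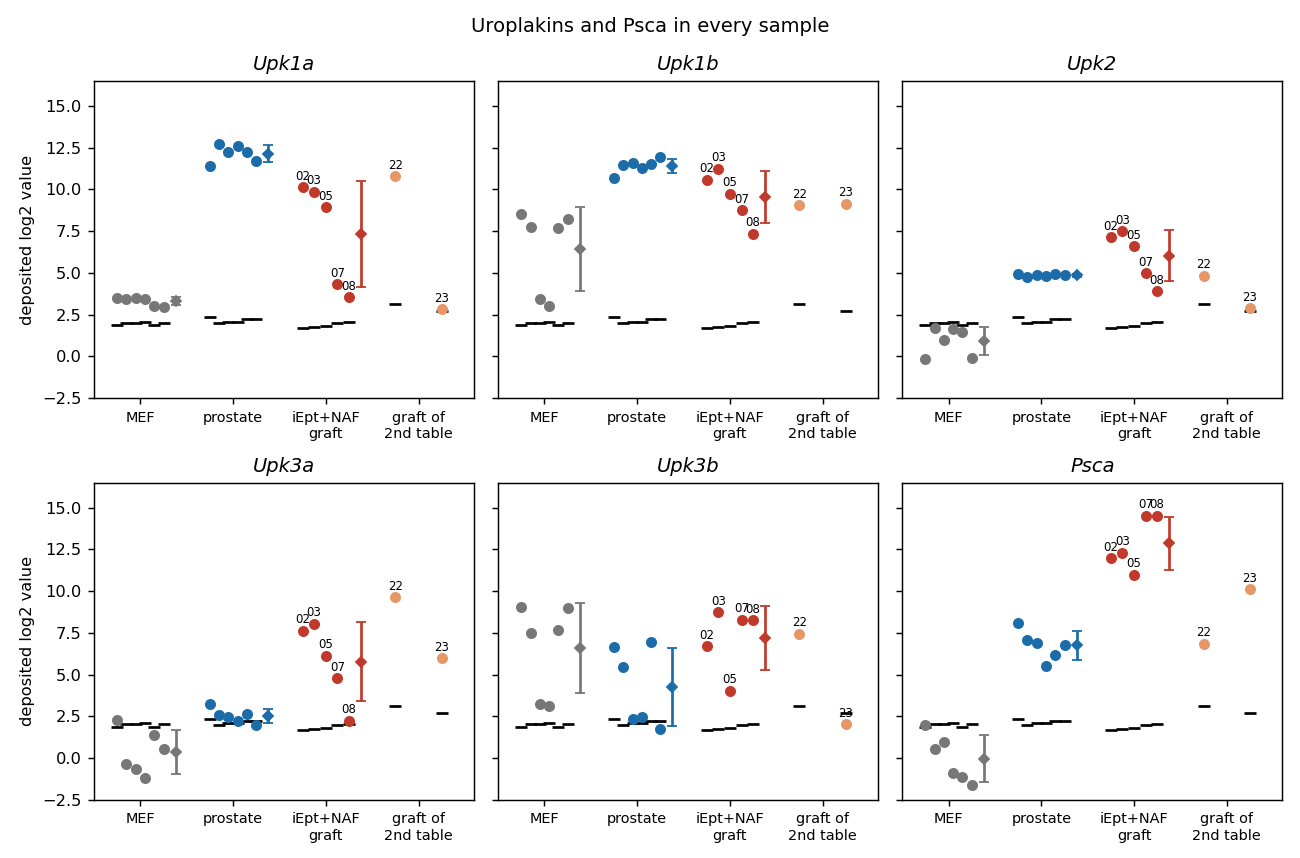
Deposited log2 values (vertical axis) of the 5 uroplakins and Psca in every sample of the 4 sets on the horizontal axis. Dots are samples, diamonds with bars are the mean ± SD of a group, short black lines mark the value of 3 reads in that sample, and the small numbers are the last digits of the graft names. Upk1a and Upk1b are highest in prostate, Psca is highest in grafts FS007 and FS008, and the 2 grafts of the second table, which was normalized apart, carry no mean.

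Normal prostate carried the tetraspanins Upk1a and Upk1b at high levels and hardly any Upk3a. Upk1a had log2 values of 11.40 to 12.74 in the 6 prostate samples (median 12.22), and of 2.94 to 3.53 in the 6 MEF samples (median 3.41). Every prostate sample was far above every MEF sample, and the log2 fold change was 8.85 (SE 0.22; limma, adjusted p = 6.78e-12; exact permutation test, p = 0.00216, which is the smallest that 6 against 6 samples can give). Upk1b had log2 values of 10.66 to 11.94 in prostate (median 11.48) and of 3.0 to 8.51 in MEFs (median 7.75). All prostate samples again lay above all MEF samples, although MEFs spread widely, and the log2 fold change was 4.96 (SE 0.93; limma, adjusted p = 2.69e-04; exact permutation test, p = 0.00216). The Upk1b values in MEFs fell into 2 sets, with FS017 and FS018 at 3.42 and 3.0 and the other MEF samples at 7.71 or above. Without MEF samples FS015 to FS018, which carry the prostate trace, the log2 fold change of Upk1b was 3.43 and that of Upk1a 9.16, and both still passed. Upk1a in MEFs was at 3.03 and 2.94 in FS019 and FS020, which lack the trace, and all 6 MEF samples were above the level of 3 reads.

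The partners of the tetraspanins were low in prostate. Upk2, the partner of Upk1a, had nearly the same log2 value in all 6 prostate samples, 4.73 to 4.96 (4.86 ± 0.08, SD, n = 6). In MEFs its log2 values ran from -0.15 to 1.68 and none exceeded the level of 3 reads. The log2 fold change was 3.93 (SE 0.38; limma, adjusted p = 4.64e-07; exact permutation test, p = 0.00216), and 2.88 with values raised to the level of 3 reads, an alternative added after the data were seen. Upk3a, the partner of Upk1b in plaques, had log2 values of 2.00 to 3.25 in prostate (median 2.51) and of -1.19 to 2.25 in MEFs (median 0.11). The prostate values sat just above the level of 3 reads in 5 of 6 samples, and 1 MEF sample, FS015, overlapped them. Upk3a did not reach the mean of 10 normalized reads asked for in the fit, and the exact permutation test gave p = 0.0065 for a difference of 2.19 on the log2 scale, or 0.52 with values raised to the level of 3 reads.

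Psca was present in prostate at a moderate level. Its log2 values there were 5.53 to 8.07 (median 6.83), highest in FS009 and lowest in FS012. In MEFs they ran from -1.63 to 1.95, and only FS015 passed the level of 3 reads, at 1.95 against 1.89. The log2 fold change was 6.79 (SE 0.63; limma, adjusted p = 3.33e-07; exact permutation test, p = 0.00216), or 4.76 with values raised to the level of 3 reads. FS015 is also the MEF sample with the most Pbsn, at a log2 value of 8.55, and whether its Psca reads belong to the prostate trace was not tested.

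Of the 6 genes, 5 passed the filter on low values in prostate against MEFs, and 4 were called higher in prostate and none lower. Among all 14560 genes tested, 27.8% were called higher, 20.5% lower and 48.3% in either direction, where a call needs an adjusted p under 0.05 and a log2 change of 1 or more in size. In 4 of the 6, Upk1a, Upk1b, Upk2 and Psca, all prostate samples lay above all MEF samples, as in 37.4% of all genes tested. A gene that passes the filter only through the group where it is high has to differ, so this count describes the 6 genes and is not a result about them as a set.

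Upk3b, unlike Upk1a, Upk1b and Upk2, was not called higher in prostate than in MEFs. Its log2 values in prostate were 6.64, 5.45, 2.32, 2.43, 6.93 and 1.76 in FS009 to FS014, a range from under the level of 3 reads to well expressed. In MEFs they were 9.02, 7.49, 3.27, 3.13, 7.68 and 9.0 in FS015 to FS020. The groups overlapped, and the log2 fold change of -2.34 (SE 1.31) did not pass (limma, adjusted p = 0.115; exact permutation test, p = 0.141). Leaving out MEF sample FS017 or FS018 moved it to -3.01 or -3.04 with adjusted p = 0.0456 or 0.0421, and leaving out FS015 to FS018 to -4.08 with adjusted p = 0.03, and after quantile normalization of all 12 samples it passed as well, at -3.40. The call thus turned with FS017, FS018 and the scaling.

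Some mesothelial genes, though not all that were listed, split the same samples. Lrrn4, a marker of mesothelium, had log2 values of 3.96, 4.21 and 5.5 in prostate samples FS009, FS010 and FS013, where Upk3b was expressed, and of 1.55, 1.62 and 0.98 in FS011, FS012 and FS014, where it was near or below the level of 3 reads. Msln (mesothelin) was at 5.87, 4.79 and 6.04 against 1.41, 2.18 and -0.02 in the same sets of samples. The 3 prostate samples with Upk3b were thus also the 3 with Lrrn4 and Msln. Rspo1 was split by less, at 4.62, 4.10 and 4.63 against 1.98, 2.77 and 3.73. Wt1, a transcription factor of mesothelium and kidney, was at 6.90, 6.61 and 7.07 against 6.34, 6.6 and 6.45, and Gpm6a at 5.68, 5.66 and 7.06 against 5.48, 5.05 and 4.5, so both hardly separated these samples. Among MEFs, Lrrn4 was at 2.58 and 2.25 in FS017 and FS018 and at 6.72 to 7.37 in the other 4 samples, Wt1 at 2.29 and 0.99 against 4.95 to 7.47, and Gpm6a at 2.17 and 1.78 against 5.87 to 7.70. Msln was split by less there, at 7.35 and 7.71 against 8.76 to 10.80, and Rspo1 was not, at 3.84 and 4.43 against 3.91 to 4.80. Upk1b split the MEF samples as Upk3b did, at 3.42 and 3.0 in FS017 and FS018 against 7.71 to 8.51. In prostate Upk1b did not follow Upk3b, at 10.66, 11.45 and 11.52 in FS009, FS010 and FS013 against 11.57, 11.29 and 11.94. Of the 6 mesothelial genes listed, 5 were in both tables, and their summed log2 level was 6.90 to 8.63 in prostate, 7.54 to 10.96 in MEFs and 10.45 to 13.02 in the iEpt+NAF grafts, with 2 to 5, 3 to 5 and all 5 of them above the level of 3 reads. What part mesothelial cells have in Upk3b or Upk1b was not tested. In bulk tissue fewer cells of a type and less RNA per cell cannot be told apart.

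**Figure D2:**
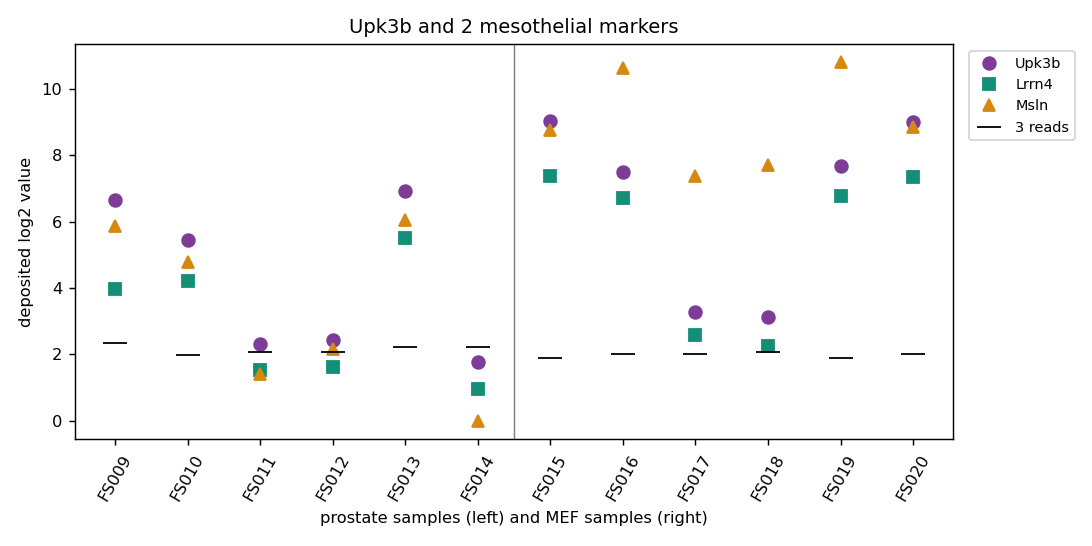
Deposited log2 values (vertical axis) of Upk3b and the mesothelial markers Lrrn4 and Msln in each prostate sample (left of the line) and each MEF sample (right). Short black lines mark the value of 3 reads. All 3 genes are near or below that level in prostate samples FS011, FS012 and FS014, and Upk3b and Lrrn4 are low in MEF samples FS017 and FS018.

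Every one of the 5 uroplakins was above the level of 3 reads in all 5 iEpt+NAF grafts, but the level differed strongly between grafts. Upk1a had log2 values of 10.12, 9.86 and 8.95 in FS002, FS003 and FS005, and of 4.32 and 3.53 in FS007 and FS008. FS002, FS003 and FS005 were far above all MEF samples, whereas FS008 was level with the highest MEF sample. Upk2 showed the same split, at 7.13, 7.50 and 6.6 against 4.97 and 3.89, and so did Upk3a, at 7.64, 8.06 and 6.13 against 4.79 and 2.23. In FS002, FS003 and FS005 both Upk2 and Upk3a were above all 6 prostate samples, the reverse of Upk1a, which was below all of them. Upk1b was spread less, with log2 values of 10.60, 11.25, 9.76, 8.77 and 7.36 in the same order, and only FS003 lay inside the prostate range of 10.66 to 11.94. FS008 lay inside the MEF range of 3.0 to 8.51, and FS007 just above it.

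The graft means with their spread were 7.36 ± 3.17 for Upk1a, 9.55 ± 1.54 for Upk1b, 6.02 ± 1.53 for Upk2 and 5.77 ± 2.36 for Upk3a (log2 values, SD, n = 5). Prostate minus grafts on the log2 scale was 4.79 for Upk1a and 1.86 for Upk1b, and -1.16 for Upk2 and -3.24 for Upk3a. Relative to prostate, the tetraspanins were thus lower and their partners higher in the grafts on average, although FS008 was below all prostate samples for Upk2. Grafts minus MEFs was 4.05 for Upk1a, 3.10 for Upk1b, 5.09 for Upk2 and 5.43 for Upk3a, and these share the graft values with the differences from prostate. Upk2 in all MEF samples and Upk3a in all but FS015 did not exceed the level of 3 reads. The sizes 5.09 and 5.43 thus rest on undetectable MEF values, and no larger rise than that of the tetraspanins is read from them. Of all genes tested, 33.3% were called in prostate against grafts (10.3% higher and 23.0% lower in prostate) and 41.9% in grafts against MEFs (29.9% higher and 12.0% lower in grafts), and nothing is read from the members' own values beside these, since graft values chose them.

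Upk3b went its own way in the grafts too. Its log2 values were 6.71, 8.73, 4.02, 8.30 and 8.25 in FS002, FS003, FS005, FS007 and FS008, so FS007 and FS008, lowest for Upk1a, were near the top for Upk3b. Lrrn4 was at 5.59, 7.58, 5.46, 7.25 and 7.18 in the same grafts, in the same order from high to low. Msln was at 12.34, 12.71, 11.16, 12.60 and 8.92, which put FS008 last. The summed log2 level of the measured mesothelial genes was 12.66, 13.02, 11.80, 12.71 and 10.45 in the same grafts. FS008 was thus lowest for this sum although near the top for Upk3b. In FS022 and FS023 the sum was 12.93 and 14.41, with Upk3b at 7.46 and 2.04. FS023 thus had the highest sum of all grafts, with Upk3b below the level of 3 reads. The mean of Upk3b was 7.20 ± 1.94 (SD, n = 5) in the grafts, and the difference from MEFs, 0.60 on the log2 scale, turned to -0.065 or -0.091 without MEF sample FS017 or FS018, to -1.14 without FS015 to FS018 and to -1.03 after quantile normalization, so no direction is given for it.

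The make-up of the uroplakin signal was compared per kilobase of exon, a scale on which genes of different length can be set side by side. In prostate, Upk1a and Upk1b together made 97.3% to 99.4% of the summed uroplakin level, and Upk3a at most 0.24%. In the iEpt+NAF grafts the pair made 81.9%, 77%, 82.9%, 57.6% and 40.4% in FS002, FS003, FS005, FS007 and FS008, below every prostate sample. Upk2 made 6.17% to 10.5% of the graft sum against 0.42% to 1.10% in prostate. Upk3a made 8.47%, 8.82% and 5.95% in FS002, FS003 and FS005, 5.23% in FS007 and 1.18% in FS008. In FS007 and FS008 Upk3b, which is also a gene of mesothelium, took 29.6% and 52.2% of the sum. FS002, FS003 and FS005 thus held members of both plaque pairs. The sum in FS007 and FS008 was small and largely Upk1b and Upk3b. In MEFs the sum was 15.6 to 437 normalized reads per kilobase, against 451 in FS007 and 246 in FS008. Upk1a and Upk1b made 44.5% to 74.9% of the MEF sum and Upk3b 19.7% to 55.4%. FS007 and FS008 were thus inside or close to the MEF ranges for the sum and these shares. Upk3a made at most 0.68% in MEFs, below both of these grafts.

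**Figure D3:**
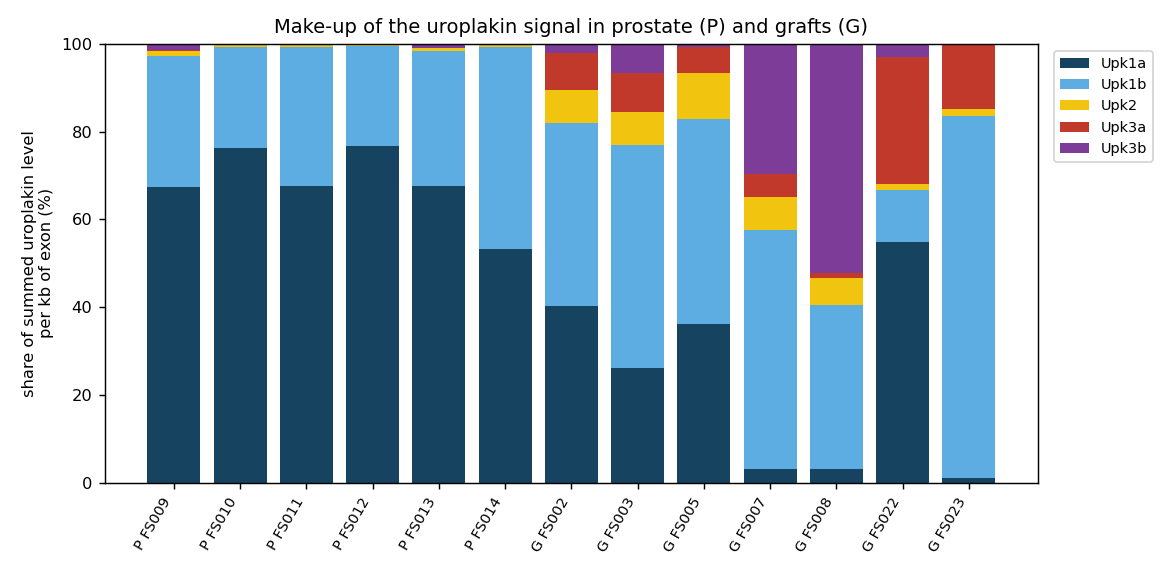
Share of each of the 5 uroplakins (colors) in their summed level per kilobase of exon (vertical axis, %) in each prostate sample (P) and each graft (G). Upk1a and Upk1b fill 97.3% to 99.4% of the prostate bars, Upk2 and Upk3a are visible in grafts FS002, FS003 and FS005, and Upk3b takes 52.2% in FS008. The last 2 bars are the grafts of the second table, and a bar shows a share, not an amount.

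Psca was the most abundant of the 6 genes per kilobase of exon in every iEpt+NAF graft. Its log2 values were 11.98, 12.29, 10.97, 14.53 and 14.51 in FS002, FS003, FS005, FS007 and FS008, with a mean of 12.86 ± 1.59 (SD, n = 5). All 5 lay above the highest prostate sample (8.07) and the highest MEF sample (1.95). Of all genes tested, 19.8% were without overlap and lower in prostate than in grafts and 28.4% without overlap and higher in grafts than in MEFs. Prostate minus grafts was -6.10 on the log2 scale, and grafts minus MEFs was 12.89, or 10.86 with values raised to the level of 3 reads. Per kilobase of exon, Psca reached 27712 normalized reads in FS007 and 27363 in FS008, against 52.3 to 313 in prostate.

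Psca did not follow the uroplakins across the 5 grafts. FS007 and FS008 had the most Psca and the least uroplakin RNA, with summed uroplakin levels of 451 and 246 normalized reads per kilobase. FS002, FS003 and FS005 had less Psca, and sums of 2106, 2712 and 1041. Within these 3 grafts the order was the same for both, FS003 above FS002 above FS005, and the ratio of Psca to summed uroplakins per kilobase was 2.25, 2.16 and 2.26. In FS007 and FS008 the ratio was 61.5 and 111. In prostate it was 0.01 to 0.10, below every iEpt+NAF graft. A correlation is not given over 5 grafts that fall into separate sets.

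**Figure D4:**
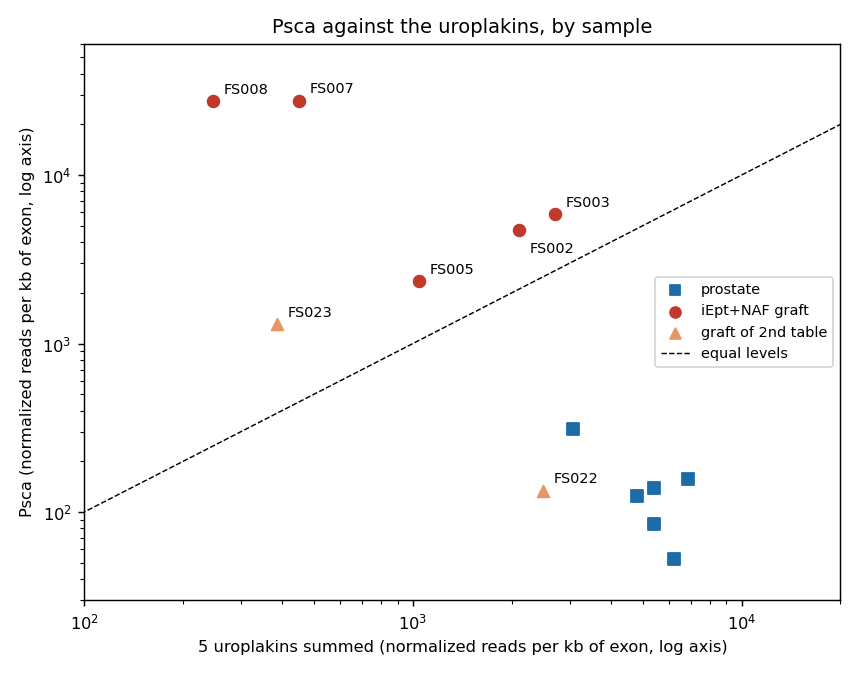
Psca (vertical axis) against the 5 uroplakins summed (horizontal axis), both in normalized reads per kilobase of exon on log axes, in each prostate sample and graft. The dashed line marks equal levels. All prostate samples and graft FS022 lie below it, grafts FS002, FS003 and FS005 lie close together above it, and FS007 and FS008 stand apart with the most Psca and few uroplakin reads.

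The 2 grafts of the second table, normalized apart from the rest and taken as iEpt only, differed widely from each other. In FS022 the log2 values were 10.80 for Upk1a, 9.05 for Upk1b, 4.84 for Upk2 and 9.64 for Upk3a, the highest Upk3a of any sample, and 7.46 for Upk3b. Psca was only at 6.86 there, within the prostate range. In FS023 Upk1b was at 9.14 and Upk3a at 5.98, whereas Upk1a (2.82) and Upk2 (2.89) were just above the level of 3 reads, and Upk3b (2.04) was below it. Psca was at 10.12 in FS023. The Psca-to-uroplakin ratio per kilobase was thus 0.05 in FS022 and 3.37 in FS023. The summed uroplakin level per kilobase in FS023, 385, was mostly Upk1b and was above that of FS008. Upk3a made 29.0% of the summed uroplakin level in FS022 and 14.5% in FS023, above all 5 iEpt+NAF grafts. Centering all samples on 10188 widely expressed genes gave shifts of -0.10 for FS022 and -0.12 for FS023. Such a shift moves every gene of a sample alike, so it cannot show whether single genes can be compared between the 2 deposited tables.

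The grafts grew under the kidney capsule, and the renal pelvis and ureter are lined by urothelium, so levels of kidney genes were set beside the uroplakins. The summed log2 level of 10 kidney genes was 16.38, 10.36, 17.42, 12.84 and 17.36 in FS002, FS003, FS005, FS007 and FS008, and 15.16 and 11.51 in FS022 and FS023. Between 8 and 10 of the 10 were above the level of 3 reads in each iEpt+NAF graft. The log2 uroplakin sum was 11.60, 12.05, 10.58, 9.68 and 8.94 in the 5 iEpt+NAF grafts in the same order, and 11.69 and 9.31 in FS022 and FS023. FS003 paired the least kidney RNA with the highest uroplakin sum and FS008 much kidney RNA with the lowest, whereas FS002 and FS022 had much of both and FS007 and FS023 comparatively little of both. Umod, a gene of the loop of Henle, was at log2 values of 4.93 in FS003 and 12.56 in FS008. The share of host tissue or of rat reads in any uroplakin value was not tested. All 10 kidney genes were called higher in grafts than in MEFs (median log2 fold change 7.89, against 0.26 for all genes tested), led by Kap at 13.44 with Lrp2 lowest at 2.68, and all 10 lower in prostate than in grafts. Of all genes tested, 29.9% and 23.0% were so called. Only 1 of the 10 passed the filter on low values in prostate against MEFs. The others passed it through the grafts, where they are high, so their direction was largely set by the filter. These counts describe the genes and are not a result about them as a set. In grafts against MEFs the count was 6 after quantile normalization and 5 without MEF samples FS015 to FS018. In prostate against grafts it was 8 after quantile normalization.

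Genes that work with uroplakins differed in both directions. Of 7 genes for plaque assembly, vesicle traffic and the umbrella-cell surface, 6 were measured. In prostate against grafts 3 were lower and 1 higher (limma, median log2 fold change -1.20, against -0.11 for all genes, of which 23.0% were lower and 10.3% higher). Krt20, a keratin of umbrella cells, had the lowest value, -7.55 (limma, adjusted p = 1.05e-06), with prostate log2 values of 1.49 to 3.41. Its graft values were 8.99, 10.82, 11.26, 10.55 and 8.68 in FS002, FS003, FS005, FS007 and FS008. Krt20 thus did not share the split of Upk1a, with FS007 above FS002. In FS022, which had the highest Upk3a, Krt20 was at 3.64, against 3.12 for 3 reads, and in FS023 at 7.70. Snx31, a sorting nexin that handles uroplakins, had log2 values of 8.08, 8.21 and 7.68 in FS002, FS003 and FS005 and of 2.82 and 5.98 in FS007 and FS008. It was thus lowest in the same grafts as Upk1a, and its prostate values (1.51 to 2.95) were near the level of 3 reads although Upk1a was high there. Snx31 passed the filter on low values through the grafts alone, so its direction was largely set by the filter. Mal, a raft protein of apical transport, showed the opposite order, highest in FS007 at a log2 value of 14.59, with FS008 next and the other 3 grafts at 10.93 to 12.23. Rab27b, a GTPase of the vesicles that carry uroplakins, was the only one higher in prostate, by 1.39 (adjusted p = 0.00205).

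Regulators of urothelium also differed in both directions. Of 8 transcription factors listed, 4 were lower and 2 higher in prostate than in grafts (median log2 fold change -0.78, against -0.11 for all genes), where 23.0% of all genes tested were lower and 10.3% higher. In grafts against MEFs 6 were higher and none lower (median 5.43, against 0.26), where 29.9% of all genes were higher. The 6 include Foxa1 (6.01), which had been introduced into these cells, so its rise is in part set by the design. Gata3, a factor of luminal and urothelial cells, was 4.30 higher in prostate on the log2 scale (SE 0.80; limma, adjusted p = 9.01e-04). In the grafts Gata3 had log2 values of 9.63, 9.40 and 8.81 in FS002, FS003 and FS005 against 4.74 and 6.13 in FS007 and FS008, the split seen for Upk1a, and 10.69 and 6.67 in FS022 and FS023. MEFs already held Gata3 at log2 values of 5.35 to 8.27, and it did not pass in grafts against MEFs (0.50; limma, adjusted p = 0.658). Grhl3, a factor of umbrella-cell maturation, was 6.04 lower in prostate (SE 0.62; adjusted p = 1.43e-05), at log2 values of -0.21 to 2.92 there and 6.22 to 8.59 in the iEpt+NAF grafts. The prostate values were near the level of 3 reads or below it. Grhl3 passed the filter on low values through the grafts alone. Its direction was thus largely set by the filter, and the size 6.04 rests on barely detectable values. Elf3 was the factor with the largest rise over MEFs, 11.57 (SE 0.73; adjusted p = 3.10e-07), and Pparg the lowest, -0.55, which did not pass. The MEF values of Elf3 were under the level of 3 reads in all but FS015, so 11.57 rests largely on undetectable values. Foxa1, introduced into the iEpt+NAF cells, was at 10.77, 11.40 and 10.76 in FS002, FS003 and FS005 and at 9.37 and 8.97 in FS007 and FS008. These values do not tell introduced from endogenous Foxa1. The study's supplementary material reports reads on the Foxa1 untranslated region, which the introduced gene lacks, in FS002, FS003 and FS005. It reports none in FS007 and FS008.

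Among members of the family that Psca belongs to, most of those tested were higher in grafts than in prostate. Of 15 Ly6-family genes, 11 were tested in prostate against grafts, and 9 were lower in prostate and none higher (median log2 fold change -3.29, against -0.11 for all genes, of which 23.0% were lower). Ly6e was the highest, at -0.19, and was not called. Only 6 of the 15 passed the filter on low values in prostate against MEFs, so some of the 11 passed it through the grafts alone. Other members were low in the grafts, with Ly6c2 at log2 values of 2.05 to 4.62, Ly6i at 1.75 to 4.76 and Gml at -1.55 to 4.02. Slurp1, a secreted member found in squamous epithelium, was lowest at -7.97 (SE 1.21; limma, adjusted p = 2.27e-04). All of its prostate values, -2.15 to 1.31, were under the level of 3 reads. Its graft log2 values were 6.61, 6.78, 4.72, 12.22 and 9.76, highest in FS007 and FS008 as for Psca. Lypd2, the neighbor of Psca on chromosome 15, was at 9.43, 10.52, 7.92, 10.16 and 8.68 in FS002, FS003, FS005, FS007 and FS008 and at 1.03 to 3.64 in prostate, a log2 fold change of -7.12 (SE 0.54; adjusted p = 1.96e-06). Unlike Psca, Lypd2 did not rise in FS007 and FS008 above the other grafts. Slurp1 and Lypd2 passed the filter on low values through the grafts alone. Their direction was thus largely set by the filter, and their sizes rest on prostate values that were low or under the level of 3 reads. Ly6d was the member with the largest difference of grafts from MEFs, 10.66 (SE 0.73; adjusted p = 5.43e-07), and its lowest graft value was 8.96 in FS008. All MEF values of Ly6d, -1.48 to 1.96, were under the level of 3 reads, so the size 10.66 rests on undetectable values. Reads of near-identical Ly6 copies could be shared between genes, which makes the values of Ly6a, Ly6c1, Ly6c2, Ly6f and Ly6i uncertain.

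Genes of proximal luminal prostate cells were followed because these cells also carry Psca. Of the 7 genes of this population near the urethra, 5 were lower in prostate than in grafts (median log2 fold change -3.04, against -0.11 for all genes). All 7 were higher in grafts than in MEFs (median 8.28, against 0.26). Of all genes tested, 23.0% were called lower in prostate than in grafts and 29.9% higher in grafts than in MEFs. Krt7 had graft log2 values of 12.31, 12.42, 11.56, 14.49 and 13.41, with FS007 and FS008 at the top as for Psca, and 8.26 to 8.74 in prostate (log2 fold change -4.31, SE 0.42; limma, adjusted p = 9.59e-06). Krt4 was at 13.98, 14.19, 11.64 and 13.40 in FS002, FS003, FS005 and FS007 but at 7.53 in FS008, which had as much Psca as FS007. Wfdc2 had the lowest value of this list in prostate against grafts, -4.63, and Krt19 the highest, 0.78, which did not pass the fold limit.

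Squamous and stomach genes separated grafts that Psca did not. All 8 squamous genes were lower in prostate than in grafts (median log2 fold change -3.85, against -0.11 for all genes, of which 23.0% were lower). Dsg3 was lowest at -8.79 and Krt10 highest at -2.84. The count fell to 4 after quantile normalization, to 4 when FS002, FS003, FS005, FS011 or FS014 was left out alone, and to 5 without FS012 or FS013. Their summed log2 level was 14.50, 14.24, 11.79, 14.49 and 9.71 in FS002, FS003, FS005, FS007 and FS008, so FS007 and FS008, alike in Psca, differed by over 4 log2 units. Krt13, a keratin of stratified lining epithelium that urothelium also uses, was at 14.18 in FS007 and 4.02 in FS008. Of 7 stomach genes, 6 were tested and 4 were lower in prostate than in grafts, Tff2 the most at -8.45 and Muc6 the least at -2.68, and 2 were called after quantile normalization or without FS002. Their summed log2 level was 11.66, 14.55, 10.18, 8.73 and 7.30 in the same order of grafts, and 6.77 and 14.32 in FS022 and FS023. The stomach level was thus lowest in the iEpt+NAF grafts with the most Psca, FS007 and FS008. In prostate against MEFs only 3 squamous genes and no stomach gene passed the filter on low values. The others passed it through the grafts, where they are high, so the direction of their calls was largely set by the filter. The counts of both lists describe these genes and are not a result about them as sets.

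**Figure D5:**
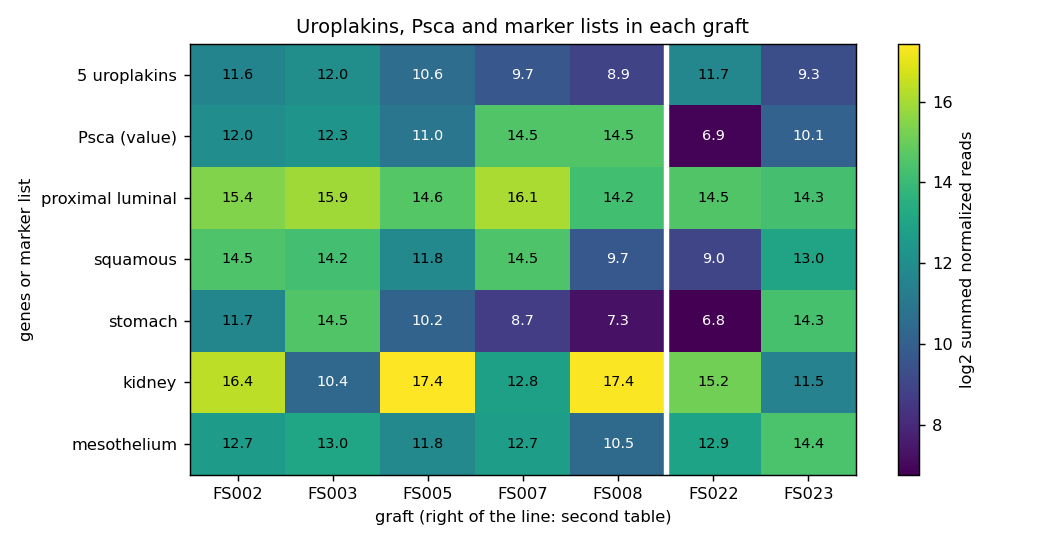
Log2 levels (color scale and printed numbers, log2 summed normalized reads) of the 5 uroplakins summed, of Psca, and of 5 marker lists summed (rows) in each graft (columns), with the second table, normalized apart, right of the white line. Among the iEpt+NAF grafts uroplakins are highest in FS003 and FS002, with kidney genes at 10.4 and 16.4, and Psca is highest in FS007 and FS008, where uroplakins and stomach genes are low.

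The split between grafts was also looked at relative to an epithelial gene. Epcam, an epithelial adhesion molecule, had log2 values of 12.40, 13.32, 12.97, 12.71 and 11.03 in FS002, FS003, FS005, FS007 and FS008, and of 12.84 to 13.20 in prostate, and did not pass in prostate against grafts (log2 fold change 0.50; limma, adjusted p = 0.211). FS002, FS007 and FS008 lay below all prostate samples for Epcam, FS008 the farthest. Taken relative to Epcam on the log2 scale, Upk1a was at -2.28, -3.46 and -4.03 in FS002, FS003 and FS005, at -8.39 and -7.50 in FS007 and FS008, and at -1.80 to -0.16 in prostate. For Upk1a the split of the grafts and the gap to prostate thus remained on this scale. Upk1b was at -1.80, -2.07, -3.22, -3.94 and -3.67 in the same order of grafts. Its prostate range was -2.54 to -1.18, so FS002 and FS003 lay inside it. Upk2 was at -7.74 to -5.27 in the iEpt+NAF grafts and -8.25 to -7.96 in prostate. All of these grafts, FS008 included, were thus above prostate for Upk2. Upk3a was at -8.81 to -4.76 against -11.12 to -9.95. Psca relative to Epcam was at -0.41, -1.03, -2.0, 1.83 and 3.48 in the same order and at -7.31 to -5.13 in prostate. FS008 had the lowest Epcam and so rose most on this scale. Secretory genes of prostate were far lower in these grafts than in prostate, with all 6 listed genes called (median log2 fold change 10.39, against -0.11 for all genes). Of all genes tested, 10.3% were called higher in prostate than in grafts.

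The genes most like Psca over the 17 samples of the first table were Scnn1a, a subunit of the epithelial sodium channel, Hdc, the enzyme that makes histamine, and Hrh3, a histamine receptor, with Pearson correlations of log2 values of 0.977, 0.976 and 0.975 among 16100 genes. Hdc had graft log2 values of 8.67, 9.76, 8.19, 12.01 and 13.19, highest in FS007 and FS008 as for Psca. By the same measure Upk2 ranked 1267 and Upk3a 1858, and Upk1b, Upk1a and Upk3b ranked 5916, 6624 and 8881. For the summed uroplakin level the most alike genes outside the 6 were Serinc2, Synpo2 and Gdpd1 (0.981, 0.960 and 0.960), and Psca ranked 5609 (0.456). These correlations describe 17 samples of 3 groups that share a normalization, and the part that differences between groups have in them was not measured.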

How the data were processed

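RNA-seq values of 19 samples were used. The deposited values are log2 reads per gene that the authors had normalized with DESeq, in a table of 17 samples and another of 2. The submitters' processing notes name bcl2fastq 1.8.4, TopHat, Cufflinks, DESeq and mm9. The transformation to log2 is not given in the sources used here. Values between 11.5 and 15 all corresponded to whole reads (within 0.05) times a factor of the sample, once a shared offset of 1.61 was taken from the linear value. Reads on genes and the value of 3 reads were estimated from these factors. Lower values carry added scatter, so counts were not tested. Levels per kilobase use normalized reads after removal of the offset and merged exons of GENCODE M1.

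Tests on the deposited log2 values used limma 3.58.1 (R 4.3.3; lmFit, eBayes with trend) on the samples compared, over genes with a mean of at least 10 normalized reads. Calls needed a p-value under 0.05 after Benjamini-Hochberg adjustment and a log2 change of 1 or more in size. The fit was tested on simulated data. Exact permutation tests are two-sided. Other steps ran in Python 3.11.15 with numpy 2.4.6, pandas 2.3.3 and scipy 1.17.1, and plots in matplotlib 3.10.9. Nothing in the labels ties samples to separate animals or cultures, so p-values measure the spread between these samples.

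The 6 genes and the 11 marker lists (88 genes, 85 in both tables) were chosen with earlier results of these data known. Named genes are the 6 members, the genes of each list with the highest and lowest log2 fold change in prostate against grafts and in grafts against MEFs, other list genes with their values, and the 3 genes most like Psca and most like the uroplakin sum. The alternatives changed the filter, the scaling, the samples fitted, the scale and the fold limit, and left out each sample in turn. Leaving out prostate and MEF samples and raising values to the level of 3 reads were added after seeing the data.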

Additional observations from a re-analysis of the deposited data

Results flagged for a closer look

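Values of the 6 genes, their sums and named list genes were screened for a sample far from the rest of its group, by Dixon's critical value in groups of 5 or 6 samples. Of 72 sets screened, 1 stood out, where about 1 in 20 (3.6) would by chance. It was the summed uroplakin level in prostate, which was lowest in FS009 at a log2 value of 12.12, with the other 5 prostate samples at 12.83 to 13.24. FS009 was also the prostate sample with the lowest Upk1a (11.40) and Upk1b (10.66) and the highest Psca (8.07).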

How the results depend on the processing

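The counts of called genes over all marker lists together, and among the 6 genes in prostate against MEFs, kept their size within 1.5 times under every alternative, but single lists did not. Under quantile normalization 6 of 36 list counts moved by over 1.5 times: in prostate against grafts squamous genes went from 8 to 4 and stomach genes from 4 to 2, in grafts against MEFs stomach genes from 6 to 3 and kidney genes from 10 to 6, and in prostate against MEFs mesothelial genes from 1 to 3 and squamous genes from 2 to 1. Without MEF samples FS015 to FS018, which leaves 2 MEF samples, 8 of 24 did, among them squamous (7 to 3), stomach (6 to 2) and kidney genes (10 to 5) in grafts against MEFs. With no filter on low values 5 of 36 list counts moved by as much, and with a mean of at least 50 reads 3 did. Leaving out 1 sample at a time gave 39 to 41 listed genes in prostate against MEFs, 62 to 69 in grafts against MEFs and 54 to 66 in prostate against grafts, and 4 to 5 of the 6 genes in prostate against MEFs. Upk3b was the exception in direction. Its grafts-minus-MEFs difference of 0.60 became -1.03 after quantile normalization, -1.14 without MEF samples FS015 to FS018, and ranged from -0.091 to 1.40 when 1 sample was left out, being -0.065 without MEF replicate 3 (FS017) and -0.091 without MEF replicate 4 (FS018). Its prostate-minus-MEFs difference of -2.34 passed at -3.40 after quantile normalization, and without FS015 to FS018, FS017 or FS018. Quantile normalization also moved grafts minus MEFs to 2.47 for Upk2 and 3.03 for Upk3a. It moved the median log2 fold change of all genes from 0.17 to -0.01 in prostate against MEFs, from 0.26 to -0.19 in grafts against MEFs and from -0.11 to 0.13 in prostate against grafts. Genes called higher and lower then went from 4815 and 1942 to 2556 and 3724 in grafts against MEFs, and from 1683 and 3757 to 3058 and 2342 in prostate against grafts. Of the called list genes, Rspo1 in grafts against MEFs was the one whose direction turned. The cause was not tested. Depth limits Upk3a in prostate and in MEFs, and Psca and Upk2 in MEFs, which lie at or near the level of 3 reads or below it. No paired analysis was possible because the labels give no replicate numbers, and the numbers used only name samples.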

Other observations

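Genes of other endoderm were also measured in the grafts. Of 7 genes of lung, airway and intestine, 6 were higher in grafts than in MEFs and 4 lower in prostate than in grafts (limma; median log2 fold changes 6.59 and -6.12, against 0.26 and -0.11 for all genes). Of all genes tested, 29.9% and 23.0% were so called. Only 1 of the 7 passed the filter on low values in prostate against MEFs. The others passed it through the grafts, so their direction was largely set by the filter and the counts only describe them. Scgb1a1, a secretory gene of airway club cells, was the highest in grafts against MEFs (log2 fold change 10.49) and the lowest in prostate against grafts (-8.72), and had log2 values of 11.44, 12.79 and 11.30 in FS002, FS003 and FS005 against 8.99 and 8.32 in FS007 and FS008. Sftpc, a surfactant gene of the lung, was at 9.29, 9.53 and 11.33 against 2.35 and 1.35, and Cdx2, a regulator of intestine, at 3.96, 9.07 and 8.33 against -0.43 and 0.07. Nkx2-1, a regulator of lung, had the lowest value of the list in grafts against MEFs (3.35) and Lgals4 the highest in prostate against grafts (-0.30). These 3 genes were thus higher in each of the 3 grafts with the most Upk1a than in FS007 and FS008, although Scgb1a1 was still well above the level of 3 reads there. Other genes of the list did not split the grafts this way. Vil1 of the intestinal brush border was at 9.42, 11.72 and 11.79 against 7.82 and 10.11, Lgals4 at 4.19, 6.53 and 6.31 against 4.38 and 3.47, and Foxj1, a gene of ciliated cells, at 10.34 to 11.02 in all 5.

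General epithelial genes were higher in both prostate and the grafts than in MEFs. All 7 were called in both comparisons, Epcam the most in grafts against MEFs (10.16) and Krt18 the least (6.46), and only Krt18 was called between prostate and grafts (1.71 higher in prostate), with Krt8 lowest at -0.49. Of all genes tested, 27.8% were called higher in prostate than in MEFs and 29.9% in grafts than in MEFs. Between prostate and grafts 33.3% were called in either direction. Esrp1, a splicing regulator of epithelia, was 0.88 higher in prostate (adjusted p = 0.0047) and missed the call through the fold limit alone, and 2 genes of the list were called without FS007. In the mesothelial list, 4 of 5 tested genes were lower in prostate than in grafts, as were 23.0% of all genes tested. Msln was the lowest (-8.17), while Wt1 was the highest (0.36) and was not called. After quantile normalization 2 of the 5 were lower and 1, Wt1, higher.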
